A study of Homo sapiens with 12 samples.

Results

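The genes described here are 47 factors that shorten, uncap and degrade mRNA, read from RNA-seq of human HEK-293T cells that carried programmable RNA effectors. They were chosen by name: transcript rows whose gene symbol was one of 47 listed symbols were summed per gene, which gave 47 of the 58290 gene-level entries of each abundance table. The rule itself uses symbols and no expression value. The study built CIRTS effectors, in which a guide RNA brings a fusion protein made from human parts to a transcript. The effector of CIRTS-12 is a nuclease and that of CIRTS-3 is YTHDF2, the reader of N6-methyladenosine that brings decay enzymes to methylated mRNA. Each effector was given a guide against the transcript of SMARCA4, a chromatin remodelling ATPase, or a non-targeting (NT) guide. Below, each of the 4 groups is named by its effector and then its guide (nuclease-NT and YTHDF2-NT, nuclease-SMARCA4 and YTHDF2-SMARCA4), with 3 libraries in each and 12 in all.

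All groups share the same host, HEK-293T, derived from human embryonic kidney and expressing the large T antigen of SV40, and all of them carry an effector and a guide. No library of cells without an effector was analysed here, so a response common to both effectors and both guides has no reference. The submitters describe the replicates as biological, but the labels do not say whether they came from separate cultures, transfections or days. The p-values below therefore measure the spread between these libraries, which may be partly technical. RNA was read from whole cultures, in which fewer cells of a type and less RNA per cell cannot be told apart.

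Cytoplasmic mRNA decay usually begins at the poly(A) tail. The PAN2-PAN3 complex and then the CCR4-NOT complex trim the tail, the LSM1-7 ring with PATL1 binds the shortened end, and the DCP1-DCP2 enzyme removes the cap so that the exonuclease XRN1 can degrade the body from the 5′ end. The RNA exosome, a ring of core subunits with DIS3-type nucleases attached, degrades RNA from the 3′ end. YTHDF2 recruits CCR4-NOT through its scaffold CNOT1. The members were ordered by role as the CCR4-NOT complex (11 genes), its adaptors TOB1, TOB2 and BTG3, PAN2-PAN3, the poly(A) nuclease PARN, decapping factors (8 genes), the LSM ring (7 genes), the exonucleases XRN1 and XRN2, the exosome core (9 genes) and the exosome nucleases (4 genes). The name of the last group is a short label, since it also holds DIS3L2, a relative of DIS3 that is not bound to the exosome.

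The 12 libraries held 9207196 to 18047859 estimated counts, of which the members took 0.365% to 0.412%, and no member had fewer than 157 counts in any library. Levels within a gene are given as CPM, counts relative to the scaled library total. SMARCA4 itself, the targeted gene, stood at 238 ± 10.7 CPM (SD, n = 3) in nuclease-NT and at 236 ± 15.4 CPM in nuclease-SMARCA4. With the YTHDF2 effector it stood at 262.5 ± 35.4 CPM under the NT guide and at 225 ± 17.0 CPM under the SMARCA4 guide. The SMARCA4 guide groups overlapped their NT groups with both effectors, with log2 differences of -0.01 ± 0.09 (SE; edgeR quasi-likelihood test, Benjamini-Hochberg adjusted p = 0.985) for the nuclease and -0.22 ± 0.09 (edgeR adjusted p = 0.703) for YTHDF2. Without the library YTHDF2-NT 2 the latter was -0.29 (edgeR adjusted p = 0.0485), where 9.46% of all genes passed. YTHDF2 stood at 241 to 264 CPM in the group means with the nuclease and at 5653 to 6619 CPM with the YTHDF2 effector, and all libraries labelled YTHDF2 lay above all labelled nuclease. Transcripts of the construct and of the cells' own gene cannot be told apart in that count. Markers described for HEK-293T were detected in all libraries, with VIM at 629 to 769 CPM and PAX2 at 1.36 to 4.02 CPM. Of the markers of other cell types, HBB was at 0, PTPRC reached 0.0551 CPM, ALB 0.487 CPM and COL1A1 12.8 CPM. The YTHDF2-NT libraries stood apart from each other: the median coefficient of variation of the members was 13.9% there against 4.62% to 5.48% in the other 3 groups, and over all genes tested it was 17.4% against 7.79% to 8.76%.

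All 47 members were expressed, most of them well above the typical gene. Levels are compared between genes as TPM, a value relative to transcript length and to the library, averaged over the 12 libraries. The median member stood at 43.5 TPM, against 8.59 TPM for the 16297 genes tested, and 44 of the 47 members lay above that median. The highest levels belonged to small LSM proteins: LSM4 stood at 328 TPM, LSM5 at 193, LSM7 at 179 and LSM2 at 178.5. XRN1, the main cytoplasmic 5′ exonuclease, had the lowest level at 4.59 TPM, with a range over libraries of 3.24 to 6.85.

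**Figure D1:**
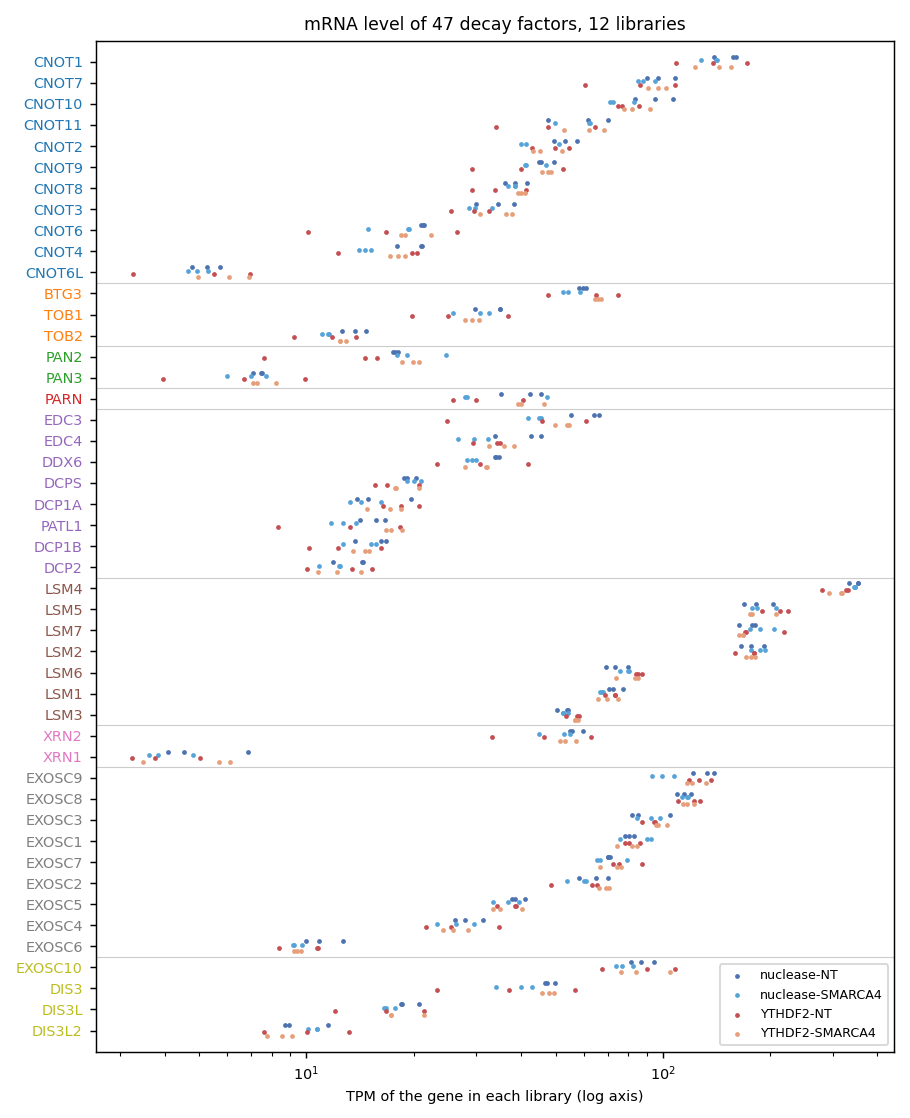
TPM of each of the 47 decay factors in each of the 12 libraries, 1 point per library coloured by group, on a log axis, with genes ordered by role and by mean level within a role (label colours mark the roles). LSM4 is highest at a mean of 328 TPM and XRN1 lowest at 4.59, and the points of the 4 groups lie close together for most genes.

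Within the CCR4-NOT complex the subunit mRNAs were far from equal. CNOT1, the scaffold, was highest at 143 TPM, and CNOT6L, one of the 2 CCR4-type nuclease subunits, was lowest at 5.36 TPM, a 26.6-fold range over the 11 genes. Its paralog CNOT6 stood at 19.2 TPM, 3.59 ± 0.494 times CNOT6L (SD over 12 libraries). Of the CAF1-type nucleases, CNOT7 stood at 92.3 TPM and CNOT8 at 37.9, and CNOT7 exceeded CNOT8 in every library, with a ratio between 2.07 and 2.82. Among the adaptors that link CCR4-NOT to its targets, BTG3 was highest at 60.7 TPM and TOB2 lowest at 12.3, and TOB1 exceeded TOB2 by 2.42 ± 0.247 times. PARN, a poly(A) nuclease that works outside these complexes, stood at 37.4 TPM. The 2 genes of PAN2-PAN3 summed to 24.8 TPM, with the nuclease PAN2 at 17.7 and its adaptor PAN3 at 7.15. The decapping factors lay between 12.7 TPM for DCP2, the decapping enzyme, and 50.6 TPM for EDC3, an enhancer that bridges DCP2 and the helicase DDX6 (31.5 TPM). The 2 activators of the decapping enzyme were the closest pair of paralogs, with DCP1A at 1.19 ± 0.330 times DCP1B and a ratio between 0.826 and 2.04, so that on all models neither was the higher in all libraries.

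The LSM ring held the largest sum of any group, 1084 TPM over 7 genes, spread unevenly over its members. LSM4 exceeded LSM3, the lowest at 54.9 TPM, by 5.98-fold. The exosome core summed to 623 TPM over 9 genes, from EXOSC6 at 9.97 TPM to EXOSC9, a subunit of the ring, at 120 TPM. Of the 4 genes in the exosome nuclease group, EXOSC10, the nuclear distributive nuclease, was highest at 85.6 TPM. DIS3L2, a cytoplasmic enzyme that prefers uridylated RNA and works apart from the exosome, was lowest at 9.74 TPM. DIS3, the processive nuclease of the nuclear exosome, stood at 43.5 TPM, 2.41 ± 0.273 times its cytoplasmic counterpart DIS3L. Nuclear XRN2, which acts in transcription termination, stood at 52.3 TPM and exceeded cytoplasmic XRN1 by 11.8 ± 2.19 times, with a ratio of at least 8.02 in every library. The XRN2 to XRN1 ratio lay between 11.2 and 12.6 in the means of the 4 groups.

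The level of a gene depended on which transcript models kallisto filled. The 466 annotated models of the members comprise 222 protein coding models, 100 processed transcripts, 98 retained introns and 46 targets of nonsense-mediated decay, the pathway that removes mRNAs with early stop codons. The median member had 89.5% of its TPM on coding models, and 23 members had over 90%. In 8 members coding models held under 50% of the TPM. For LSM2 the share was 5.74%, since LSM2-209 (641 bases) and LSM2-214 (767 bases), both processed transcripts, took 49.3% and 40.9%. For LSM6 it was 12.7%, with 86.2% on LSM6-207, a model of 545 bases marked for nonsense-mediated decay. For PAN2 it was 19.1%, with 80.9% on retained introns. CNOT1 had 40.9% on coding models, and its leading model CNOT1-221 is a retained intron of 493 bases against 8471 bases for the coding model CNOT1-201. The other members under 50% were EXOSC3 (30.5%), LSM1 (37.8%), CNOT10 (44.5%) and EXOSC10 (48.6%).

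**Figure D2:**
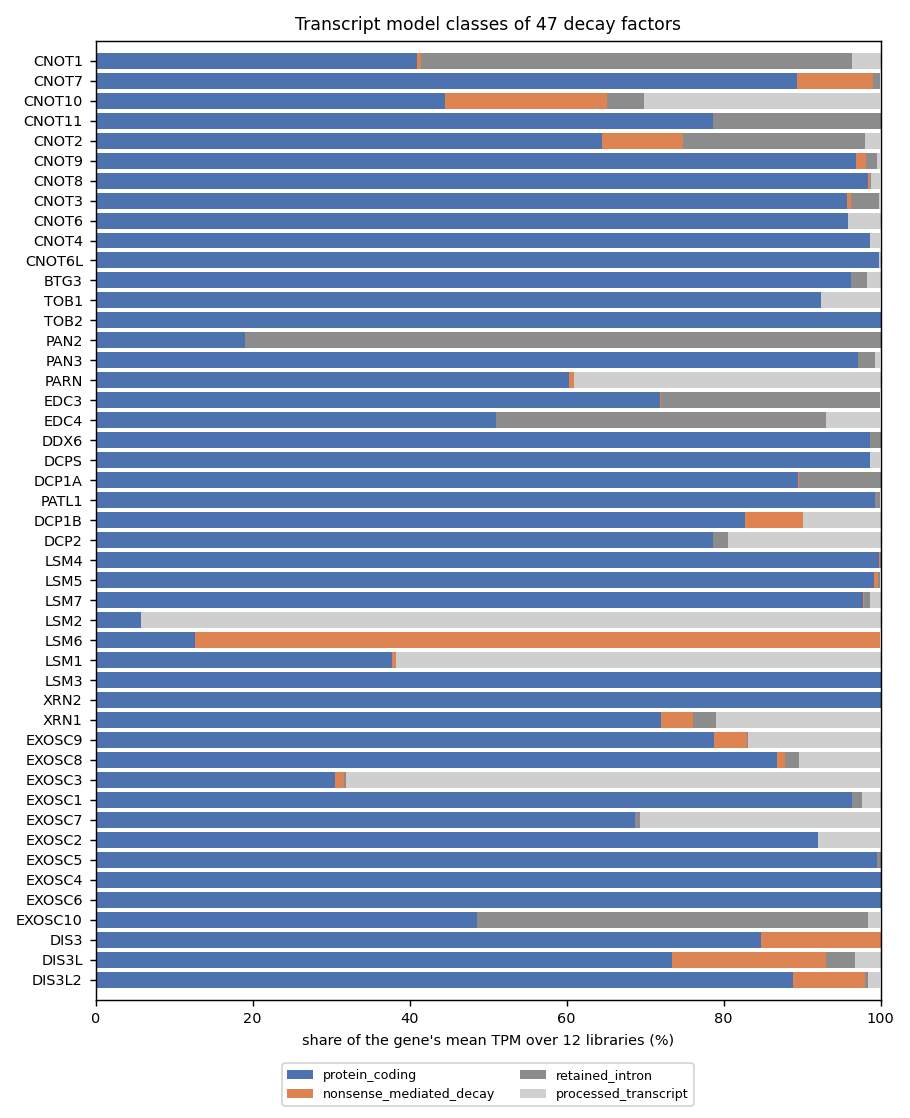
Share of each gene's mean TPM over the 12 libraries on models annotated as protein coding, nonsense-mediated decay, retained intron or processed transcript, in percent, with genes in the same order as in the plot of levels. LSM2, LSM6 and PAN2 have the shortest coding bars, at 5.74%, 12.7% and 19.1%.

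Counted on coding models alone, 20 of the 47 levels moved by more than 1 SD over libraries. CNOT1 then stood at 58.2 TPM, LSM2 at 10.3 and LSM6 at 10.2, while LSM4 stayed at 328. CNOT7, at 82.5 TPM, then exceeded CNOT1 as the highest of the CCR4-NOT genes, LSM6 replaced LSM3 as the lowest of the LSM ring, and EXOSC8, at 101.6 TPM, was the highest of the exosome core. DCP1A exceeded DCP1B in every library on coding models, with a ratio between 1.04 and 1.58. The order of PAN2 and PAN3 turned too, from a PAN3 to PAN2 ratio of 0.419 on all models to 2.13 on coding models. XRN2 still exceeded XRN1, by 13.9 to 18.5 times over the libraries. The classes themselves were stable over libraries, with coding models at 72.8% to 75.7% of the members' TPM, models for nonsense-mediated decay at 3.95% to 5.02% and retained introns at 6.1% to 8.26%. By group, the nonsense-mediated decay share averaged 4.27% in nuclease-NT, 4.22% in nuclease-SMARCA4, 4.46% in YTHDF2-NT and, with the SMARCA4 guide, 4.47%. Reads shared between short models and long ones are divided by estimation, so these shares carry an uncertainty that the deposited values do not give. For 11 members the annotation also lists pseudogenes named after them, 18 in all. These took between 0.0% and 1.9% of the parent's counts, with the highest share for TOB2, and how reads were split between the copies was not tested.

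Promoter sequences from RefSeq (GRCh38.p14, 250 bases before to 50 after each gene's start) were found for 41 of the 47 members; those without an entry were CNOT1, CNOT7, EXOSC1, EXOSC4, LSM1 and LSM6. The GC box GGGCGG lay in 33 of the 41 promoters (80.5%), against 70.2% of the promoters of genes tested. The TATA box letters TATAAA lay in 1, that of EXOSC8 (2.44% against 5.56%). The ETS-type motif CCGGAAG lay in 9 (22.0% against 18.5%), the YY1-type motif AAGATGGCG in 4 (CNOT3, EXOSC2, EXOSC8 and LSM7; 9.76% against 3.82%) and CCAAT in 14 (34.1% against 36.7%). The NRF1-type palindrome CGCATGCG lay in the promoters of EXOSC10 and LSM7 (4.88% against 3.79%). The palindrome CTCGCGAG lay in those of EXOSC10 and LSM3 (4.88% against 1.94%). Both strands were searched, the palindromes read the same on both, and no motif contains another. A match says only that these letters are there. Windows of 120 bases, from 100 before to 20 after the start, are shown with the ETS-type motif and the palindromes in capitals. Not every gene with a match in its window is shown, and PARN, for one, is left out. The windows come from 5 members with a match and with values described here, of which LSM3, LSM5 and LSM7 share a role. They are EXOSC10 at chr1:11099850-11099969 (minus strand), LSM3 at chr3:14178717-14178836 (plus strand), LSM5 at chr7:32490361-32490480 (minus strand), LSM7 at chr19:2328567-2328686 (minus strand) and EDC3 at chr15:74696005-74696124 (minus strand), printed 5′ to 3′ on the gene's strand.
EXOSC10: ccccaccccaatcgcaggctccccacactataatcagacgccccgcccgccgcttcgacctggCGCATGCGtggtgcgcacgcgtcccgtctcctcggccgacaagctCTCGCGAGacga
LSM3: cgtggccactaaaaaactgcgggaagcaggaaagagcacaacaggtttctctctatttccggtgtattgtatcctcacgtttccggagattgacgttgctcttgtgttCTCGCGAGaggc
LSM5: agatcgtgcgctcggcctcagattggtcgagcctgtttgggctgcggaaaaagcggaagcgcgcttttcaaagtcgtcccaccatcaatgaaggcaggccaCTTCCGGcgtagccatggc
LSM7: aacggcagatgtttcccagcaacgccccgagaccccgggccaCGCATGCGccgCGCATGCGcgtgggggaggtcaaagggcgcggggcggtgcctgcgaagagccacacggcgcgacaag
EDC3: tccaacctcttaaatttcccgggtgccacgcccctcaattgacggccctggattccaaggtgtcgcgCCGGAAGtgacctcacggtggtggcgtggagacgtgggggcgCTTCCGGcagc
The palindrome CTCGCGAG begins at base 9 of the transcript in LSM3 and lies in the last stretch of the EXOSC10 window too. EXOSC10 also holds CGCATGCG, 37 bases before its start, and LSM7 holds it in 2 copies, the first 58 bases before. LSM5 has its ETS-type letters from base 2, on the opposite strand, and EDC3 has 2 copies, the first 33 bases before its start.

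With the nuclease effector, no member differed between the SMARCA4 and NT guides at an adjusted p under 0.05 over all genes (edgeR quasi-likelihood test), where 0.00614% of genes passed, which is 1 gene. DESeq2 passed 1 member, CNOT10, or 2.13% of members where it passed 1.01% of genes. At an unadjusted p under 0.05 there were 5 members, 0 higher and 5 lower with the SMARCA4 guide, or 10.6% against 10.9% of all genes (4.71% higher and 6.23% lower). The groups did not overlap for 7 members higher and 9 lower, against 12.8% and 12.2% of all genes (25.1% in either direction). The median log2 difference was -0.02, with 20 of 47 members higher, where 49.9% of all genes were.

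CNOT10, a subunit of CCR4-NOT that pairs with CNOT11 on the scaffold's N-terminal end (chr3:32685145-32773875, plus strand, GRCh38), had the smallest p. It stood at 124, 138 and 142.5 CPM in nuclease-NT and at 107, 114 and 114 in nuclease-SMARCA4. All 3 libraries with the SMARCA4 guide lay below all 3 with the NT guide. The log2 difference was -0.27 ± 0.07 (SE; 95% interval -0.42 to -0.12; edgeR adjusted p = 0.207), and the exact permutation test over 3 against 3 libraries gave 0.1, the smallest p it allows. DESeq2 gave an adjusted p of 0.0233 for CNOT10, and edgeR on the nuclease libraries alone gave 0.0328, where 3.57% of all genes passed. With the YTHDF2 effector CNOT10 stood at 117, 116 and 125 CPM with the NT guide and at 119, 118 and 121 with the SMARCA4 guide, and there the groups overlapped. The test of the difference between the 2 guide differences gave 0.28 ± 0.10 (edgeR, unadjusted p = 0.0143, adjusted p = 0.397).

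The next 2 by p were both decapping enhancers. EDC4, the scaffold that joins DCP1 and DCP2, stood at 56.1, 61.3 and 55.2 CPM in nuclease-NT and at 48.3, 51.1 and 52.1 in nuclease-SMARCA4 (log2 difference -0.19 ± 0.07, edgeR adjusted p = 0.375). EDC3 stood at 87.8, 96.5 and 92.4 CPM and at 86.3, 79.4 and 81.9 (-0.16 ± 0.07, edgeR adjusted p = 0.41). Neither pair of groups overlapped, and neither difference passed. As a group the 8 decapping factors had a median of -0.13, with 6 of 8 lower, and the 11 CCR4-NOT genes a median of -0.09, with 8 of 11 lower. Longer mRNAs tended to be lower in this comparison, with a Spearman correlation with mean model length of -0.43 over the members and -0.19 over all genes.

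With the YTHDF2 effector, the guide made no member pass either: 0 of 47 by edgeR, where 0.0% of all genes passed. DESeq2 also passed 0, and 0.125% of all genes for which it gave an adjusted p. It gave one for only 17 of the 47 members here, since it set aside genes with lower counts. Unadjusted p was under 0.05 for 3 members, 0 higher and 3 lower with the SMARCA4 guide, or 6.38% against 6.82% of all genes (2.44% higher and 4.39% lower). The groups did not overlap for 2 members higher and 2 lower, against 4.29% and 4.98% of all genes (9.27% in either direction). The median log2 difference was -0.01, and 21 of 47 members were higher.

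CNOT2, which with CNOT3 forms the module at the scaffold's C-terminal end, stood at 104, 86.3 and 98.6 CPM in YTHDF2-NT and at 79.7, 85.5 and 85.5 in YTHDF2-SMARCA4. The highest library with the SMARCA4 guide was just below the lowest with the NT guide. The log2 difference was -0.21 ± 0.08 (95% interval -0.37 to -0.04; edgeR adjusted p = 0.703). EXOSC6, a ring subunit of the exosome, stood at 50.5, 47.7 and 54.3 CPM and at 43.4, 43.7 and 43.7, without overlap (-0.22 ± 0.09, edgeR adjusted p = 0.703). LSM5 stood at 124, 81.8 and 102.4 CPM in YTHDF2-NT and at 79.5, 77.6 and 93.3 in YTHDF2-SMARCA4, and these groups overlapped (-0.30 ± 0.13, edgeR adjusted p = 0.703). PATL1, the protein that joins the LSM ring to the decapping enzyme, stood at 39.1, 64.0 and 52.1 CPM and at 63.6, 61.7 and 62.3, so that 1 library of the NT guide lay above all of the SMARCA4 guide.

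**Figure D3:**
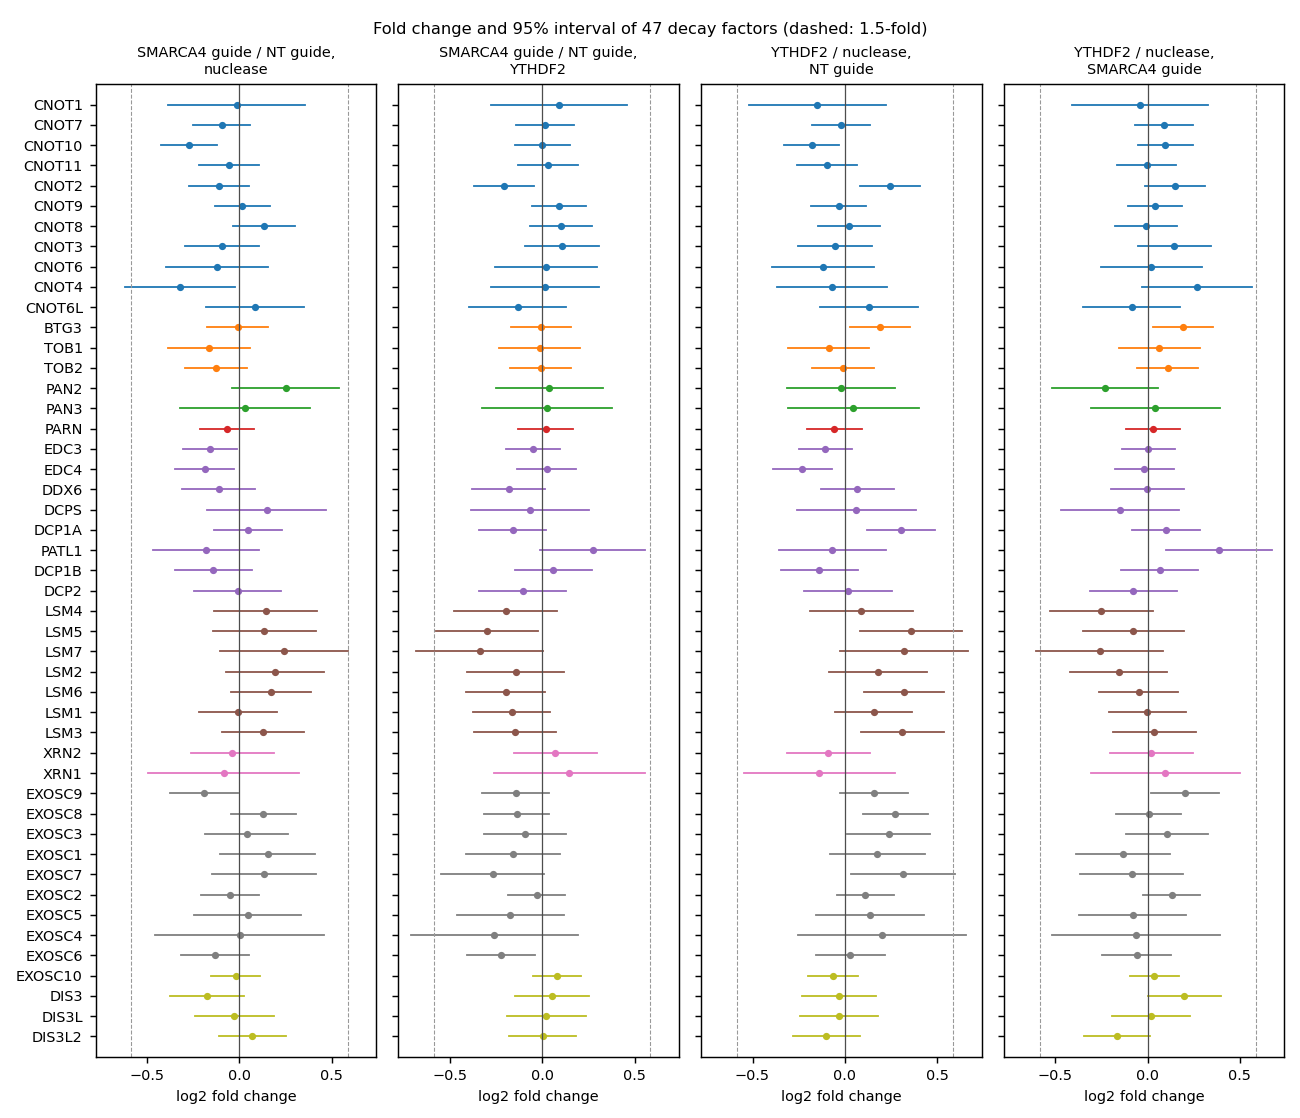
Log2 fold change (points) and 95% interval (lines) of each of the 47 genes in 4 comparisons, coloured by role in the order of the plot of levels; the solid line marks 0 and the dashed lines 1.5-fold in either direction. None of these genes has an adjusted p under 0.05, the intervals of 43 to 46 genes stay within the dashed lines, and the LSM ring (brown) lies to the left of 0 in the second panel and to the right in the third.

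Between effectors with the NT guide, 0 of 47 members passed by edgeR, where 0.0491% of genes (8) passed. DESeq2 passed 0 of the 39 members for which it gave an adjusted p, and 1.58% of all genes with one. Unadjusted p was under 0.05 for 11 members, 9 higher with YTHDF2 and 2 lower, or 23.4% against 10.9% of all genes (6.5% higher and 4.39% lower). The groups did not overlap for 5 members higher and 1 lower, against 6.86% and 5.96% of all genes (12.8% in either direction). The 9 that were higher are DCP1A, CNOT2, BTG3, LSM3, LSM5, LSM6 and the exosome core subunits EXOSC3, EXOSC7 and EXOSC8. The 2 that were lower are EDC4 and CNOT10. This comparison shares nuclease-NT with the first guide comparison and YTHDF2-NT with the second, so a gene's values in them are not independent.

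DCP1A, the activator of DCP2 (chr3:53283428-53347610, minus strand), stood at 77.8, 77.7 and 72.1 CPM in nuclease-NT and at 101.8, 85.3 and 94.0 in YTHDF2-NT. All YTHDF2 libraries lay above all nuclease libraries. The log2 difference was 0.30 ± 0.09 (95% interval 0.12 to 0.49; edgeR adjusted p = 0.288; exact permutation p = 0.1, the smallest possible). EXOSC8, a ring subunit of the exosome core (chr13:36998816-37009613, plus strand), stood at 92.4, 95.2 and 95.3 CPM with the nuclease and at 124, 99.96 and 118 with YTHDF2. Its groups did not overlap (0.27 ± 0.08, edgeR adjusted p = 0.291). LSM6 of the LSM ring (chr4:146175685-146200000, plus strand) stood at 32.3, 33.2 and 33.1 CPM and at 47.5, 36.7 and 39.0 (0.32 ± 0.10, edgeR adjusted p = 0.294), again without overlap. CNOT2, next by p, stood at 80.8, 80.8 and 82.8 CPM in nuclease-NT, below its 3 YTHDF2-NT values (0.24 ± 0.08, edgeR adjusted p = 0.294). For EXOSC8 and LSM6 the highest value was that of YTHDF2-NT 1, as it was for DCP1A and CNOT2.

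Between effectors with the SMARCA4 guide, 0 of 47 members passed by edgeR and by DESeq2. By edgeR 0.00614% of genes passed, which is YTHDF2 itself, and by DESeq2 0.859% of the genes with an adjusted p. Unadjusted p was under 0.05 for 4 members, 4 higher with YTHDF2 and 0 lower, or 8.51% against 11.5% of all genes (5.93% higher and 5.52% lower). The groups did not overlap for 9 members higher and 6 lower, against 13.4% of all genes in each direction (26.7% in either). PATL1 (chr11:59636716-59668980, minus strand) had the smallest p, at 50.7, 46.1 and 46.6 CPM in nuclease-SMARCA4 and at 63.6, 61.7 and 62.3 in YTHDF2-SMARCA4. These values lay well apart, with a log2 difference of 0.39 ± 0.13 (95% interval 0.10 to 0.67; edgeR adjusted p = 0.331). Fitted on these libraries alone, PATL1 gave 0.39 with an edgeR adjusted p of 0.0112, and LSM4, DIS3 and CNOT4 passed too, at 8.51% of the members against 4.25% of all genes. With the NT guide PATL1 overlapped between effectors, at 50.2, 57.6 and 54.8 CPM against 39.1, 64.0 and 52.1.

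BTG3, an adaptor that binds the CAF1-type nucleases, stood at 66.8, 63.3 and 71.2 CPM in nuclease-SMARCA4 and at 74.7, 75.5 and 79.6 in YTHDF2-SMARCA4 (0.19 ± 0.08, edgeR adjusted p = 0.383). With the NT guide it stood at 68.6, 67.5 and 66.2 CPM with the nuclease and at 71.1, 76.4 and 83.5 with YTHDF2 (0.19 ± 0.08, edgeR adjusted p = 0.389). BTG3 was thus higher with YTHDF2 in all libraries of both guides. Of all genes, 6.86% lay so with the NT guide and 13.4% with the SMARCA4 guide, and those that did with both were not counted. The 2 comparisons share no library, but their fits share 1 spread per gene and 1 scaling over the 12 libraries. DIS3 stood at 183, 169.8 and 188 CPM in nuclease-SMARCA4 and at 205, 207 and 209 with YTHDF2, without overlap (0.20 ± 0.09, edgeR adjusted p = 0.436). PAN2 had its smallest p between guides with the nuclease, at 24.6, 26.1 and 30.4 CPM with the NT guide and 34.9, 31.0 and 30.3 with the SMARCA4 guide, which overlapped (0.25 ± 0.13, edgeR adjusted p = 0.528). EXOSC9 stood at 112, 116 and 127.5 CPM in nuclease-SMARCA4 and at 128, 144 and 137 in YTHDF2-SMARCA4 (0.20 ± 0.09, edgeR adjusted p = 0.404).

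The test of whether the guide difference depended on the effector passed 0 of 47 members by edgeR (0.0% of all genes) and 0 by DESeq2 (0.233%). Unadjusted p was under 0.05 for 7 members, 2 with a more positive guide difference under YTHDF2 and 5 with a more negative one, or 14.9% against 11.1% of all genes (5.12% more positive and 5.93% more negative). CNOT10 came first by p, as given above. LSM6 differed by -0.37 ± 0.14 (edgeR adjusted p = 0.407) and LSM7 by -0.58 ± 0.23 (adjusted p = 0.414). LSM7, at chr19:2321517-2328620 on the minus strand, stood at 59.3, 54.1 and 59.9 CPM in nuclease-NT and at 63.6, 75.5 and 65.2 in nuclease-SMARCA4. It stood at 97.6, 55.3 and 63.0 CPM in YTHDF2-NT and at 55.4, 56.1 and 59.3 in YTHDF2-SMARCA4. A single library, YTHDF2-NT 1, lay far above all others for LSM7.

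By role, the mostly short mRNAs of the LSM ring and of the exosome core lay on 1 side of 0 as blocks in the comparisons that use YTHDF2-NT. Between effectors with the NT guide, all 7 LSM genes and all 9 exosome core genes were higher with YTHDF2, with medians of 0.31 and 0.18, while 8 of 11 CCR4-NOT genes were lower (median -0.06) and the 4 exosome nucleases were all lower (median -0.05). Between guides with YTHDF2, all 7 LSM genes and all 9 exosome core genes were lower with the SMARCA4 guide, with medians of -0.20 and -0.16. Both comparisons contain the YTHDF2-NT libraries. The median over all genes was 0.01 in the first and -0.01 in the second. Away from those libraries, the LSM ring had medians of 0.14 between guides with the nuclease (6 of 7 higher) and -0.08 between effectors with the SMARCA4 guide (1 of 7 higher). Both of these comparisons had a length trend of their own over the members, with Spearman correlations of -0.43 and 0.34 with mean model length.

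The blocks differed between single libraries and with mRNA length. Relative to the mean of the 12 libraries, the LSM ring's median deviation was 0.39, -0.13 and 0.11 log2 units in replicates 1, 2 and 3 of YTHDF2-NT. The exosome core's was 0.32, -0.09 and 0.13. PAN2-PAN3 and XRN, with 2 genes each and median lengths of 3338 and 4996 bases (PAN2 itself 1859), went the opposite way. Their medians were -0.44 and -0.48 in YTHDF2-NT 1, against 0.26 and 0.29 for replicate 2 of that group. The decapping factors, with a median length of 3004 bases, stood at -0.035 in YTHDF2-NT 1 and 0.005 in YTHDF2-NT 2. Without YTHDF2-NT 1, the LSM ring's median between effectors with the NT guide was 0.05 in place of 0.31, and between guides with YTHDF2 it was -0.06 in place of -0.20. Without YTHDF2-NT 2 the same medians were 0.38 and -0.28. The exosome core's medians were 0.06 and -0.01 without YTHDF2-NT 1, with 3 of 9 genes higher in the second, and 0.27 and -0.25 without YTHDF2-NT 2. Between effectors with the NT guide, the CCR4-NOT genes turned without YTHDF2-NT 1, to a median of 0.03 with 8 of 11 higher, and had a median of -0.10 without YTHDF2-NT 2. The exosome nucleases had medians of 0.01 and -0.12 in these settings, with 2 of 4 genes higher in the first.

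**Figure D4:**
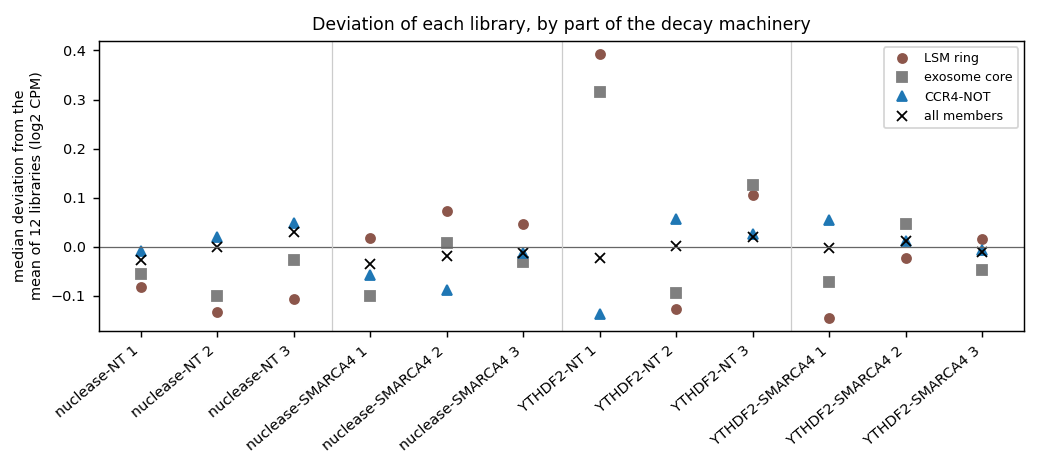
Median deviation, in log2 CPM, of the LSM ring, the exosome core, CCR4-NOT and all 47 members in each library from the mean of the 12 libraries; vertical lines separate the groups. The LSM ring and the exosome core stand at 0.39 and 0.32 in YTHDF2-NT 1, while the median of all members stays near 0 in every library.

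Across the 47 members, the log2 difference between effectors with the NT guide had a Spearman correlation of -0.44 with mean model length, and across all 16297 genes it was -0.27. Comparisons without YTHDF2-NT had such correlations too. For the members it was -0.43 between guides with the nuclease (all genes -0.19) and 0.34 between effectors with the SMARCA4 guide (all genes 0.18). These are descriptions across genes of the same libraries and carry no test. In YTHDF2-NT 1 the members' deviations had a correlation of -0.71 with length (all genes -0.50), in YTHDF2-NT 2 one of 0.76 (all genes 0.45), and in YTHDF2-NT 3 one of -0.26. In the other groups the members' correlations ran from -0.41 in nuclease-SMARCA4 2 (all genes -0.24) to 0.57 in YTHDF2-SMARCA4 1 (all genes 0.29). The length trend was then taken out of each library by a smooth fit over all genes. After that, the LSM ring's median between effectors with the NT guide was 0.08 and that of the exosome core 0.09, and between guides with YTHDF2 they were -0.05 and -0.08. LSM3, whose only model is 3815 bases long, and DCP1A, with a mean model length of 5416 bases, stood higher after the trend was removed. The plot of fold change by length shows both. The fit treated them as long mRNAs, by mean model length. Yet across the YTHDF2-NT libraries both were highest in replicate 1 and lowest in replicate 2, as the LSM ring's median was. LSM3 stood there at 255.9, 175.0 and 211.5 CPM and DCP1A at 101.8, 85.3 and 94.0. What produced the length trend in these libraries was not tested, and the labels give no RNA quality value.

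**Figure D5:**
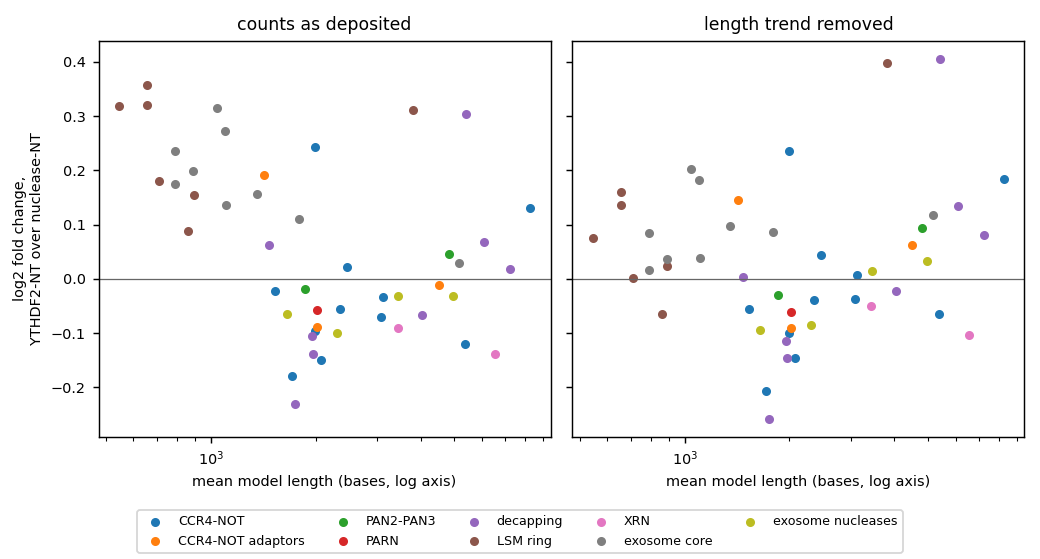
Log2 fold change of YTHDF2-NT over nuclease-NT for each of the 47 genes against its mean model length in bases (log axis), coloured by role, for counts as deposited (left) and with each library's length trend removed (right). On the left all points of the LSM ring and the exosome core, mostly short mRNAs, lie above 0; on the right their medians are 0.08 and 0.09, and LSM3 and DCP1A are the highest points.

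The number of members that passed depended on YTHDF2-NT 2. Without that library, 11 members passed between effectors with the NT guide by edgeR, or 23.4% of members against 9.61% of all genes: LSM2, LSM3, LSM5, LSM6, LSM7, EXOSC3, EXOSC7, EXOSC8, CNOT2 and DCP1A higher and CNOT1 lower. Between guides with YTHDF2, 9 passed (19.1% against 9.46%), of which CNOT1 and PATL1 were higher. For the difference of guide differences, 10 passed (21.3% against 8.62%). These counts rest on a YTHDF2-NT group of 2 libraries, 1 of which is YTHDF2-NT 1. With the length trend removed as well, a choice made after seeing the data, 4 passed between effectors with the NT guide (8.51% of members against 3.63% of all genes): LSM3 at 0.60, DCP1A at 0.58, CNOT2 at 0.30 and CNOT1 at -0.44, with edgeR adjusted p from 0.00788 to 0.0367. The fit took 2078 bases as the length of CNOT1, whose coding model CNOT1-201 has 8471. How well the lengths used suit these 4 genes was not tested. With all 12 libraries and the trend removed, none of the members passed.

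For CNOT1, the contact of YTHDF2 in the CCR4-NOT complex, the 12 libraries were 284, 255 and 259 CPM in nuclease-NT, 294, 250.1 and 245 in nuclease-SMARCA4, 169, 327 and 224 in YTHDF2-NT, and with its SMARCA4 guide 272, 249 and 247. Its lowest and highest values over the 12 libraries thus both came from YTHDF2-NT. The log2 differences over all libraries were -0.15 between effectors with the NT guide and 0.09 between guides with YTHDF2. Both turned without YTHDF2-NT 1, to 0.05 and -0.11, and without YTHDF2-NT 2 they were -0.44 and 0.39 (edgeR adjusted p = 0.029 and 0.0458). No direction is therefore read from them. Counts rebuilt from TPM and length also turned both signs, to 0.04 and -0.11. CNOT7, the nuclease subunit, varied less, from 108 to 129 CPM over the 12 libraries, and its log2 differences lay between -0.10 and 0.09 in the 4 comparisons.

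The 95% intervals rest on 1 spread per gene, estimated over all 4 groups. The members' median coefficient of variation was 13.9% in YTHDF2-NT and 4.62% to 5.48% in the other groups. Intervals that use YTHDF2-NT may thus be too narrow, and the others too wide. For 46 of 47 members the 95% interval of the guide difference with the nuclease lay within 1.5-fold in either direction, and for 45 with YTHDF2, where 61.6% and 63.0% of all genes did. Between effectors the counts were 43 with the NT guide and 45 with the SMARCA4 guide, against 61.9% and 61.6% of all genes. All 47 lay within 2-fold in each of these 4 comparisons, where 80.1% to 81.4% of all genes did. The median half-width of the members' intervals was 0.211 to 0.213 log2 units in these comparisons, so smaller shifts of a typical member were not resolved. The most reproducible members were EXOSC10, with a coefficient of variation within groups of 2.99%, DIS3L2 (3.72%) and PARN (3.82%), and the least were EXOSC4 (21.7%) and XRN1 (19.1%). PARN stood at 64.2 to 70.3 CPM in nuclease-NT and 63.8 to 65.3 CPM in YTHDF2-NT, so its YTHDF2-NT libraries lay close together.

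At the level of single transcripts, 205 of the 466 member models were tested among 49518. None of them passed in any of the 5 comparisons by edgeR (DESeq2 was not run on transcripts), where 0.00202%, 0.00606%, 0.00404%, 0.00808% and 0.00606% of all models passed in the order used above. At an unadjusted p under 0.05 there were 8, 12, 13, 6 and 15 member models, against 4.72%, 4.33%, 5.17%, 4.44% and 5.11% of all models. DCP1A-206, the coding model that holds 89.2% of that gene's TPM, stood at 95.5, 85.2 and 93.3 CPM in YTHDF2-NT, above the highest nuclease-NT library at 78.7 CPM (0.27 ± 0.08, edgeR adjusted p = 0.936). LSM6-207 stood at 18.5, 19.5 and 23.2 CPM and at 32.0, 25.2 and 27.7 (0.47 ± 0.14, edgeR adjusted p = 0.936), above the nuclease libraries in all 3. DIS3-204, a model marked for nonsense-mediated decay, was estimated at 33.6 CPM in YTHDF2-NT 2 and listed at 0 in the other two libraries of that group, and at 9.76 to 26.9 CPM in the remaining groups. Without YTHDF2-NT 2 it passed in the comparisons that use that group, which then holds only libraries at 0. The gene DIS3 itself stood at 169, 231 and 199 CPM there.

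The partners and cofactors of the members, a list of 48 genes with the poly(A)-binding proteins, TNRC6 and AGO proteins, the SKI and nuclear exosome adaptors and the YTHDF family, were all tested. Only YTHDF2 passed by edgeR over all 12 libraries, with log2 differences of 4.65 and 4.55 between effectors (edgeR adjusted p = 3.69e-09 and 4.57e-09). The list's medians were -0.06 and -0.01 between guides with the nuclease and with YTHDF2, and 0.08 between effectors with either guide. TOE1, a deadenylase of Cajal bodies, stood at 36.3, 42.9 and 46.6 CPM in nuclease-NT and at 22.9, 28.2 and 29.4 in nuclease-SMARCA4 (-0.64 ± 0.13, edgeR adjusted p = 0.142). BTG2, an antiproliferative relative of BTG3 that binds the CAF1-type nucleases, stood at 64.3, 83.3 and 77.9 CPM and at 53.8, 52.6 and 60.6 (-0.43 ± 0.11, adjusted p = 0.2 by edgeR). Both lay lower in all 3 libraries with the SMARCA4 guide, and neither passed by edgeR; DESeq2 gave adjusted p of 0.00599 for TOE1 and 0.0316 for BTG2. Between guides with YTHDF2 the smallest p belonged to EIF4ENIF1, which binds the cap-binding protein (-0.21 ± 0.07), and PABPC4, a poly(A)-binding protein (-0.18 ± 0.06; edgeR adjusted p = 0.703 for both). TOE1 (0.65 ± 0.19) and CDKN2AIP (0.62 ± 0.18), a regulator of XRN2, led the difference of guide differences, with edgeR adjusted p of 0.36 and 0.367. Counts rebuilt from TPM and length turned the sign for EIF4ENIF1, to 0.10, and for CDKN2AIP, to -0.20. UPF1, the helicase of nonsense-mediated decay, differed by -0.06 and 0.04 between guides and by -0.18 and -0.08 between effectors, none of which passed. Its guide differences changed sign under some alternatives.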

How the data were processed

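Messenger RNA of HEK-293T cells was sequenced after library construction with KAPA's HyperPrep kit for mRNA (per the labels' protocols). The authors deposited 1 abundance table per library, with estimated counts and TPM per transcript, made with kallisto, per the file headers and the submitters' processing notes. Those notes list sleuth and hg38 too. Versions are not given in the sources used here. Transcript names match GENCODE 29 in 197690 of 200401 cases. The deposited estimated counts were summed per gene and rounded. Genes passing edgeR's filterByExpr (16297, with at least 99.8% of counts) were tested in R 4.3.3 with edgeR 4.0.16 (TMM scaling, quasi-likelihood F test, 1 mean per group, 8 residual degrees of freedom, Benjamini-Hochberg adjustment over all genes), and CPM values are scaled by TMM. The biological coefficient of variation was 11.4%. The deposited TPM values were used for levels only. Alternatives were DESeq2 1.42.0, limma-voom 3.58.1, other scalings, no filter, only the groups compared, a replicate block, length-scaled counts, a length trend (lowess over all genes) removed from each library, and each library left out. The tests were checked on simulated counts with 1 spread per gene in all groups and no length trend. That check does not cover the wider spread of YTHDF2-NT or the length trends of these libraries. The 47 members, the 48 other pathway genes, the marker list and the motifs were chosen with earlier results of these data known; the NRF1-type and YY1-type motifs and the palindrome CTCGCGAG were shortened after a first search with longer letters. Genes are named as follows: in each comparison the 3 members with the smallest p where fewer pass, in each role the highest, the lowest and the member with the smallest p, and of the other genes YTHDF2, UPF1 and either those that passed or the 2 with the smallest p. Other members and transcripts were named after their values were seen. Same-numbered libraries had correlations of -0.198 to 0.055 in their deviations from the group means, so the numbers were not taken to pair them.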

Additional observations from a re-analysis of the deposited data

How the results depend on the processing

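The count of members that passed was 0 in all 5 comparisons and stayed 0 under other scalings, limma-voom and length-scaled counts. It became 1 with the nuclease under DESeq2, with only the groups compared, and with the length trend removed without YTHDF2-NT 2, each time CNOT10 (1.01%, 3.57% and 0.973% of all genes passed there, and 2.13% of members). With only the groups compared it was 4 between effectors with the SMARCA4 guide (4.25% of genes). Without the filter on low counts it was 1 for the difference of guide differences, LSM7 (1.43% of genes). Leaving out 1 library in turn gave 0 to 9 members between guides with YTHDF2, 0 to 11 between effectors with the NT guide, 0 to 10 for the difference of guide differences and 0 in the others; each highest count came without YTHDF2-NT 2. It gave 0 to 1 member transcripts in these 3 comparisons. With the length trend removed and without YTHDF2-NT 2, an alternative added after seeing the data, the counts were 1, 5, 4, 1 and 4 in the order of the report, where 0.973%, 3.96%, 3.63%, 0.865% and 2.55% of genes passed. The 15 fold changes named for the smallest p kept their direction under every alternative run, but not their size. With the length trend removed, LSM5 was -0.124 between guides with YTHDF2, and LSM6 was 0.137 between effectors with the NT guide. For the difference of guide differences, LSM7 was then -0.206 and LSM6 -0.0789, or -0.00374 with YTHDF2-NT 2 left out as well. Others grew with the trend removed, such as DCP1A between effectors with the NT guide (0.406) and EXOSC6 between guides with YTHDF2 (-0.316). Of the other fold changes in the text, none of which passed except YTHDF2, some changed sign. Length-scaled counts gave CNOT1 0.0397 between effectors with the NT guide and -0.108 between guides with YTHDF2, EIF4ENIF1 0.103, CDKN2AIP -0.205, and UPF1 0.0199 and -0.0277 between guides. Leaving out 1 library gave CNOT1 -0.443 to 0.0505 and -0.106 to 0.385, SMARCA4 with the nuclease -0.0506 to 0.0417, and UPF1 with YTHDF2 -0.00418 to 0.117. SMARCA4 with the nuclease was 0.000277 with upper-quartile scaling and 0.00314 without the filter. UPF1 with YTHDF2 was -0.0392 with the length trend removed and -0.103 with YTHDF2-NT 2 left out as well. The cause was not tested. With the replicate number as a block, 0 members passed in each comparison; the numbers share no source in the labels, and the block changed no call. Between guides with YTHDF2, DESeq2 gave an adjusted p for only 17 members, and its count covers those. The lowest member counts in a library were 157 for EXOSC4 and 192 for DIS3L2, and no table tests what depth alone contributes to their spread. What sets YTHDF2-NT 1 and 2 apart was not tested.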
